A study of Homo sapiens with 32 samples.

Results

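Amino acid transporters are membrane proteins that move amino acids between the medium and the cell, and the 10 described here are SLC7A11, SLC3A2, SLC7A5, SLC43A1, SLC7A1, SLC1A5, SLC1A4, SLC6A9, SLC38A1 and SLC38A2. They were taken by gene symbol from a table of 22610 gene entries, in which each symbol was found, and all 10 were among the 12621 genes with a mean of at least 1 FPKM (reads per gene, scaled by transcript length and library size) that were tested. The mRNA of SK-N-BE(2) cells was sequenced after treatment with cannabidiol (CBD), a nonintoxicating plant cannabinoid. SK-N-BE(2) is an established human neuroblastoma cell line, so every sample comes from the same line and the values speak for that line only. CBD was given at 20 µM in ethanol, and the control cells received 0.1% ethanol, called vehicle here, for the same time. Treatment lasted 3, 6, 12 or 24 h after an overnight attachment period, with 4 samples in each of the 8 groups and 32 samples in all.

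Cells take up amino acids through carriers that differ in what they accept and in what drives them. SLC3A2 (the heavy chain 4F2hc or CD98) brings several light chains to the surface, among them SLC7A11 (xCT), which exchanges extracellular cystine for glutamate, and SLC7A5 (LAT1), which exchanges large neutral amino acids such as leucine. Transcription of many of these genes is known to be raised by ATF4 when amino acids are scarce or the endoplasmic reticulum is stressed. That of SLC7A11 is also raised by NFE2L2 (NRF2) under oxidative stress.

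Promoter sequences are shown first because both factors act through short DNA words near start sites. RefSeq windows on GRCh38.p14, each of 300 bases around an annotated start, were available for 9 of the 10 genes, in 16 windows, with none for SLC7A11. The words searched on both strands were TGATGNAA, a core of the element bound by C/EBP and ATF proteins, TGACNNNGC, a core of the antioxidant response element, and CACGTG, the E-box. The 7 windows printed below are those that hold the C/EBP-ATF or the antioxidant word, whatever the gene's response to CBD. They read from 5′ to 3′ on the strand of the gene, with the words found in capitals. Of their 6 genes, 5 hold the C/EBP-ATF core, 4 the antioxidant core and 3 both.
SLC3A2, chr11:62881449-62881748, plus strand: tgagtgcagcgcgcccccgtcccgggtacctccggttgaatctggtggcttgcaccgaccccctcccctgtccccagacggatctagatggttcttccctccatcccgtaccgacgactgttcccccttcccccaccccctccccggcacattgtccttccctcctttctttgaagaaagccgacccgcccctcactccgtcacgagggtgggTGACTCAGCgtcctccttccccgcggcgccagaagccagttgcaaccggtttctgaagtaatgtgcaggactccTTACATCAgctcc
SLC7A5, chr16:87869458-87869757, minus strand: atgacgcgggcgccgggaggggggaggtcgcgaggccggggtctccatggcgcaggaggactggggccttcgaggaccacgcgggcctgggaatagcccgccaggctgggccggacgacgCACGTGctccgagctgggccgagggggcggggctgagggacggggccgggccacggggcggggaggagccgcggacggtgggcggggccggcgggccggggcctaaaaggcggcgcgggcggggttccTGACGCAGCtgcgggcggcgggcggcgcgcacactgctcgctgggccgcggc
SLC7A1, chr13:29595639-29595938, minus strand: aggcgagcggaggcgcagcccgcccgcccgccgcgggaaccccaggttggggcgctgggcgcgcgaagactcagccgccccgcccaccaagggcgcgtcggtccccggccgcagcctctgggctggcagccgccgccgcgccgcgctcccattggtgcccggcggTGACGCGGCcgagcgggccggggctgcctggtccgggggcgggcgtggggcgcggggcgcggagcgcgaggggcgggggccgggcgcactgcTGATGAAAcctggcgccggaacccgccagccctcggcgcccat
SLC1A5, window nearest the gene end, chr19:46784765-46785064, minus strand: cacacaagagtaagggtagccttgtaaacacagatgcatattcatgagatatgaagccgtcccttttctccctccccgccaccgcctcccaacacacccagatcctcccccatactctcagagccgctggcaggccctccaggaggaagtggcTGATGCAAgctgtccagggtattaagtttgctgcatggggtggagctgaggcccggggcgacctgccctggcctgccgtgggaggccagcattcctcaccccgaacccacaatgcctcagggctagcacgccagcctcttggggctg
SLC1A5, middle window, chr19:46787244-46787543, minus strand: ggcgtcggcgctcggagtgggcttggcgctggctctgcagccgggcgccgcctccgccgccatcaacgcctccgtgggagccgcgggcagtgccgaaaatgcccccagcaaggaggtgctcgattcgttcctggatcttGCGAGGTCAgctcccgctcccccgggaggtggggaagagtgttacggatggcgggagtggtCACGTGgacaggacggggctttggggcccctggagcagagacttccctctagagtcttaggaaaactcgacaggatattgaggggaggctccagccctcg
SLC1A4, chr2:64989149-64989448, plus strand: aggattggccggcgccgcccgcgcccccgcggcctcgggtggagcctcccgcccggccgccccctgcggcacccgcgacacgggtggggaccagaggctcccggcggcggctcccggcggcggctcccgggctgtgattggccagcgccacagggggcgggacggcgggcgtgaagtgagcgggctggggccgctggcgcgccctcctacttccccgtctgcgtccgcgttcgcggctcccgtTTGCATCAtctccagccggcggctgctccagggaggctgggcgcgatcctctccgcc
SLC38A1, chr12:46266467-46266766, minus strand: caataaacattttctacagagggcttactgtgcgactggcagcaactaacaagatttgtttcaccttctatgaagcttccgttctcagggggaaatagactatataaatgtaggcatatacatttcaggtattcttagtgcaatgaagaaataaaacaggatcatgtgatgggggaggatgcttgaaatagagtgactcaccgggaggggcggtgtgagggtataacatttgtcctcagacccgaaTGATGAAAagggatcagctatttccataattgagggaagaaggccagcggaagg

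The C/EBP-ATF core was found in 5 of the 16 windows, and in 3.62% of all 35116 windows in the table. It starts at position 8 after the start of SLC7A1 and, on the other strand, at position 38 after the third start of SLC3A2. In SLC1A5 it lies 97 bases before a start, in SLC1A4 7 bases and in SLC38A1 4 bases before a start. The antioxidant core was found in 4 windows, against 13.3% of all windows. It lies 2 bases before the start of SLC7A5, 37 before the third start of SLC3A2, 85 before the start of SLC7A1 and 111 before the middle start of SLC1A5. The E-box was found in 3 windows, against 7.26% of all windows, those of SLC7A5 and SLC43A1 and the middle window of SLC1A5. In the window of the glycine carrier SLC6A9 and in that of SLC38A2 none of the 3 words was present. None was present either in the most upstream window of SLC1A5 or in the other windows of SLC3A2, SLC1A4, SLC38A1 and SLC43A1. Of the members with the C/EBP-ATF core, SLC3A2 was called higher with CBD at 4 of the 4 times, SLC7A1 and SLC1A5 at 3, SLC1A4 at 1 and SLC38A1 at 0. Of the members with windows but without that core, SLC7A5, SLC43A1 and SLC6A9 were each called higher at 3 times and SLC38A2 at 0. A match describes the letters of a window and nothing more.

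The samples matched their label. All 11 markers of sympathoadrenal neuroblastoma in the list used had a mean of at least 1 FPKM, and MYCN, which is amplified in this line, averaged 1763 FPKM. None of 5 leukocyte and none of 3 endothelial markers reached a mean of 1 FPKM, while 3 of 7 fibroblast and mesenchyme markers (LUM, DCN and COL1A1) and 1 of 4 epithelial markers (EPCAM) did. At 24 h the summed FPKM of the neuroblastoma markers ranged from 3826 to 4008 with CBD and from 3602 to 3669 with vehicle, the sum of the epithelial markers from 3.97 to 4.64 and from 3.11 to 3.51, and the sum of the fibroblast markers from 59.3 to 64.8 and from 54.3 to 61.8. MYCN, the most abundant of the 11 neuroblastoma markers, was itself higher with CBD at 24 h (log2 difference 0.54, adjusted p = 1.82e-12 from limma). The sum therefore does not show a rise of the other neuroblastoma markers. The part of these shifts in the results on the carriers was not tested. FPKM carry no read counts, so depth is known only relative to other samples, where it spanned a 1.53-fold range, and the CBD groups averaged between 0.911 and 1.00 against 0.999 to 1.06 in the vehicle groups. No libraries were identical. The study's methods describe 4 separate treatments per arm and time, and the labels number the replicates without naming separate days or passages, so the p-values measure the spread between these treatments of 1 line. In bulk RNA, more transcript per cell and a larger share of cells with the transcript cannot be told apart.

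Most of the 10 carriers had more RNA with CBD than with time-matched vehicle from 6 h on. Differences are given as log2 fold changes of FPKM with 1 added, CBD minus vehicle, with their standard error (SE), and a gene was called at an adjusted p under 0.01 (limma, Benjamini-Hochberg over the 12621 genes). At 3 h, 2 carriers were called higher and 0 lower, against 1.18% and 1.28% of all genes tested. At 6 h, 8 were higher and 0 lower, against 4.07% and 6.13%. At 12 h it was 7 higher and 0 lower, against 8.85% and 11.2%, and at 24 h 7 higher and 2 lower, against 20.8% and 21.3%. The median difference over the 10 carriers was 0.10, 0.37, 0.40 and 0.48 at 3, 6, 12 and 24 h, beside medians over all genes of 0.0066, -0.0048, -0.0043 and -0.0032. All 4 CBD samples lay above all 4 vehicle samples for 2, 8, 7 and 7 carriers at the 4 times, and for 5.52%, 8.46%, 13.4% and 25.1% of all genes tested. SLC7A11 is in each of these counts and passed the filter of 1 FPKM only through its CBD samples. The count called at 3 h fell to 1 under several other settings. The 10 carriers were chosen with earlier results of these data known.

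**Figure D1:**
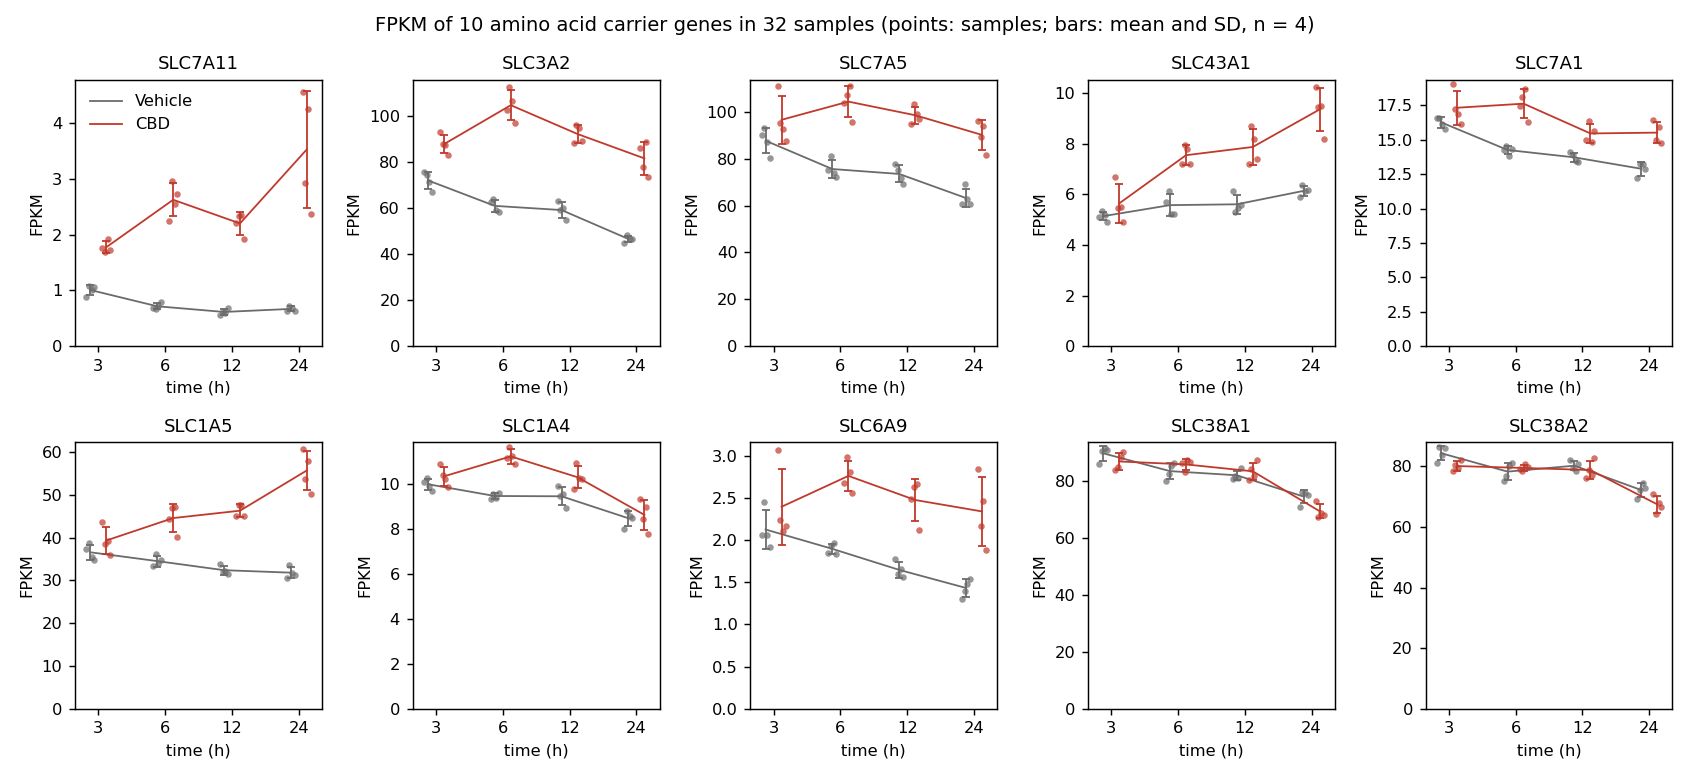
FPKM of each carrier (vertical axes, linear and starting at 0, a different scale per panel) against time of treatment in h (horizontal axis), with vehicle in grey and CBD in red. Points are samples, and lines and bars give the mean and SD of 4 samples. At 24 h CBD lies above vehicle for SLC7A11, SLC3A2, SLC7A5, SLC43A1, SLC7A1, SLC1A5 and SLC6A9, and overlaps vehicle for SLC1A4, SLC38A1 and SLC38A2.

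SLC7A11, the cystine and glutamate exchanger, had the lowest level of the 10 in vehicle and the largest difference at each of the 4 times. At 3 h the vehicle samples were at 0.882, 1.08, 1.00 and 1.06 FPKM and the CBD samples at 1.76, 1.69, 1.93 and 1.72 FPKM. At 6 h vehicle was at 0.688, 0.666, 0.717 and 0.788 FPKM and CBD at 2.25, 2.96, 2.56 and 2.73 FPKM. The groups did not overlap at either time, and the lowest CBD sample was well above the highest vehicle sample. At 12 h vehicle was at 0.557, 0.611, 0.595 and 0.687 FPKM and CBD at 2.20, 2.33, 2.36 and 1.92 FPKM. At 24 h vehicle was at 0.627, 0.725, 0.682 and 0.635 FPKM and CBD at 4.56, 2.92, 4.26 and 2.38 FPKM. Here replicates 1 and 3 of CBD stood above replicates 2 and 4, giving the widest spread of any SLC7A11 group (3.53 ± 1.05 FPKM, SD, n = 4), and still no sample overlapped with vehicle.

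The means of SLC7A11 were 1.76-, 3.67-, 3.59- and 5.29-fold higher with CBD at 3, 6, 12 and 24 h. On the log2(FPKM + 1) scale, which understates the change of a gene this low, the differences were 0.47, 1.08, 0.99 and 1.41 (SE 0.096), with adjusted p = 0.00345, 4.94e-09, 1.13e-08 and 3.14e-12. The SE is pooled over the 8 groups, whose spread differed. At 24 h the SD was 1.05 FPKM with CBD and 0.0456 FPKM with vehicle. Under the other settings tried, the adjusted p at 24 h was at most 0.000276. SLC7A11 passed the filter through its CBD samples, with a mean of 0.750 FPKM over the 16 vehicle samples and 2.53 FPKM over the 16 CBD samples. The call at 3 h was lost with 5 added in place of 1 (adjusted p = 0.0266), under quantile normalization (0.0208) and without vehicle replicate 1 (0.0116), vehicle replicate 3 (0.0112) or CBD replicate 3 (0.0153). The gene lies at chr4:139085251-139163503, minus strand (GRCh37, GENCODE 44, as for all genes). Annotated exons of the antisense gene SLC7A11-AS1 overlap 8.97% of the exon bases of SLC7A11, and that gene averaged 0.0617 FPKM.

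SLC3A2, the heavy chain that SLC7A11 and SLC7A5 pair with at the surface, was the only other carrier called at all 4 times. At 3 h its vehicle samples were at 75.6, 74.2, 71.1 and 66.9 FPKM and its CBD samples at 92.8, 87.6, 87.3 and 83.1 FPKM. At 6 h vehicle was at 62.6, 63.8, 59.0 and 58.2 FPKM and CBD at 102, 112, 107 and 97.1 FPKM. All CBD samples exceeded all vehicle samples at both times, and the mean with CBD was highest at 6 h. At 12 h vehicle was at 62.8, 59.0, 59.9 and 54.5 FPKM and CBD at 88.4, 96.2, 94.9 and 88.9 FPKM. At 24 h vehicle was at 44.9, 48.3, 46.4 and 46.5 FPKM and CBD at 85.9, 77.9, 88.8 and 73.6 FPKM. No samples of the 2 arms overlapped at these times either, and both arms were lower at 24 h than at 12 h.

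The mean of SLC3A2 with CBD was 1.22, 1.72, 1.56 and 1.75 times that with vehicle at 3, 6, 12 and 24 h. The log2 differences were 0.28, 0.77, 0.63 and 0.79 (SE 0.054), with adjusted p = 0.00199, 4.80e-11, 1.05e-09 and 3.45e-12. At 3 h it was no longer called when only the samples of that time were fitted (adjusted p = 0.0460) or without vehicle replicate 4 (0.0132). The gene lies at chr11:62623476-62656352, plus strand, and 0.183% of the 50-base words of its transcripts occur in other genes.

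SLC7A5, the large neutral amino acid exchanger, had a mean of 86.2 FPKM over all 32 samples, both arms pooled, which exceeded 93.2% of the genes tested. In vehicle alone SLC38A1 had the highest mean of the 10 at each time. At 3 h the vehicle samples were at 90.0, 93.1, 87.2 and 80.4 FPKM and the CBD samples at 111, 95.2, 92.7 and 87.5 FPKM. Here the groups overlapped, and CBD replicate 1 was above the other samples. At 6 h vehicle was at 75.2, 81.3, 73.7 and 72.1 FPKM and CBD at 104, 107, 111 and 95.5 FPKM. At 24 h vehicle was at 60.6, 69.1, 62.6 and 60.6 FPKM and CBD at 96.1, 89.1, 94.0 and 81.4 FPKM. At both of these times the groups were apart. The log2 differences were 0.13, 0.46, 0.42 and 0.50 (SE 0.064) at 3, 6, 12 and 24 h, with adjusted p = 0.208, 8.90e-06, 1.40e-05 and 2.64e-07, and the ratio of the means at 24 h was 1.43. SLC7A5 lies at chr16:87863629-87903113, minus strand. The related pseudogene SLC7A5P1 averaged 1.11 FPKM and was called at no time, and SLC7A5P2 averaged 0.489 FPKM.

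SLC43A1 (LAT3), which carries large neutral amino acids without a heavy chain, was also called higher at 6, 12 and 24 h, from a lower level than SLC7A5. At 24 h its vehicle samples were at 5.89, 6.36, 6.14 and 6.18 FPKM and its CBD samples at 10.3, 9.48, 9.50 and 8.21 FPKM, with no overlap. At 3 h the groups overlapped, with vehicle between 4.93 and 5.33 FPKM and CBD between 4.90 and 6.71 FPKM. The log2 differences were 0.11, 0.38, 0.42 and 0.53 (SE 0.067), with adjusted p = 0.356, 0.000191, 2.19e-05 and 2.22e-07, and the means at 24 h differed 1.52-fold. SLC43A1 lies at chr11:57252007-57283253, minus strand.

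SLC7A1 (CAT1), a carrier of arginine, lysine and ornithine, was higher with CBD by a smaller amount. Its vehicle samples at 6 h were at 14.3, 14.6, 13.9 and 14.4 FPKM and its CBD samples at 17.4, 18.1, 18.7 and 16.3 FPKM. At 24 h vehicle was at 12.2, 13.3, 13.2 and 12.9 FPKM and CBD at 16.4, 15.0, 15.9 and 14.7 FPKM. The groups were apart at both times. The log2 differences at 3, 6, 12 and 24 h were 0.083, 0.29, 0.16 and 0.25 (SE 0.042), with adjusted p = 0.242, 1.98e-05, 0.00478 and 1.88e-05. At 12 h it was no longer called when only the samples of that time were fitted (adjusted p = 0.0112) or without any 1 of 4 samples, vehicle replicates 3 and 4 and CBD replicates 2 and 4 (adjusted p up to 0.0262). SLC7A1 lies at chr13:30083551-30169825, minus strand.

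The exchangers SLC1A5 (ASCT2), which takes up glutamine, and SLC1A4 (ASCT1), which takes up alanine, serine and cysteine, are close relatives with different time courses. SLC1A5 in vehicle was at 37.5, 38.7, 35.5 and 34.7 FPKM at 3 h and at 30.6, 33.7, 31.8 and 31.2 FPKM at 24 h. With CBD it was at 43.7, 38.5, 39.2 and 36.0 FPKM at 3 h and at 60.8, 53.8, 58.0 and 50.3 FPKM at 24 h. The groups overlapped at 3 h and were apart at 24 h, with means 1.75-fold different. The log2 differences of SLC1A5 were 0.10, 0.36, 0.50 and 0.79 (SE 0.056), each larger than the one before, with adjusted p = 0.290, 4.14e-05, 9.84e-08 and 6.60e-12. SLC1A5 lies at chr19:47278140-47291851, minus strand. Exons of the antisense gene ENSG00000275719 overlap 23.4% of the exon bases of SLC1A5, and although the study's methods describe first-stranded reads, the strand setting used for counting is not given in the sources used here, so whether reads of these genes were kept apart is not known.

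SLC1A4, at chr2:65215611-65250999, plus strand, was called at 6 h only. Its vehicle samples were then at 9.34, 9.59, 9.38 and 9.62 FPKM and its CBD samples at 11.2, 11.7, 11.3 and 10.9 FPKM, without overlap. At 24 h vehicle was at 8.02, 8.83, 8.60 and 8.50 FPKM and CBD at 9.33, 8.44, 9.01 and 7.78 FPKM, and the CBD samples lay on both sides of the vehicle range. The log2 differences were 0.045, 0.22, 0.11 and 0.021 (SE 0.040), with adjusted p = 0.534, 0.000185, 0.0325 and 0.691. The direction at 24 h turned under median-ratio scaling and without replicate 1 of either arm.

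SLC6A9 (GlyT1), the sodium- and chloride-coupled glycine carrier, was low in every group and higher with CBD from 6 h. At 6 h vehicle was at 1.85, 1.93, 1.96 and 1.84 FPKM and CBD at 2.68, 2.99, 2.81 and 2.56 FPKM. At 24 h vehicle was at 1.31, 1.398, 1.48 and 1.54 FPKM and CBD at 2.84, 2.17, 2.46 and 1.88 FPKM. No samples overlapped at either time, and the CBD samples at 24 h were spread more widely than the vehicle samples. At 3 h CBD replicate 1 was at 3.07 FPKM and the other 3 CBD samples between 2.10 and 2.24 FPKM, within the vehicle range of 1.92 to 2.45 FPKM. The log2 differences were 0.11, 0.38, 0.39 and 0.45 (SE 0.077), with adjusted p = 0.401, 0.000902, 0.000302 and 2.01e-05, and the ratio of the means at 24 h was 1.63. SLC6A9 lies at chr1:44457172-44497139, minus strand. Exons of CCDC24 on the opposite strand overlap 7.87% of the exon bases of SLC6A9. CCDC24 averaged 1.06 FPKM and was called at 12 h only, with a log2 difference of 0.26 (adjusted p = 0.00538).

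SLC38A1 (SNAT1) and SLC38A2 (SNAT2) are sodium-coupled carriers of small neutral amino acids, glutamine among them, whose genes lie 88.2 kb apart, at chr12:46576846-46663800, minus strand, and chr12:46751971-46766556, minus strand. They were among the most abundant of the 10 and were not called higher with CBD at any time. At 24 h SLC38A1 was at 70.9, 76.0, 75.8 and 75.0 FPKM with vehicle and at 72.9, 67.4, 68.7 and 68.1 FPKM with CBD. SLC38A2 was at 69.2, 72.1, 74.5 and 72.7 FPKM with vehicle and at 70.9, 64.4, 67.9 and 66.5 FPKM with CBD. In both genes CBD replicate 1 was above the lowest vehicle sample, so the groups overlapped. The log2 differences of SLC38A1 at 3, 6, 12 and 24 h were -0.046, 0.040, 0.024 and -0.10 (SE 0.031), with adjusted p = 0.393, 0.397, 0.620 and 0.00724. Those of SLC38A2 were -0.074, 0.022, -0.026 and -0.097 (SE 0.029), with adjusted p = 0.127, 0.645, 0.555 and 0.00741. The calls at 24 h were lost under quantile normalization (adjusted p = 0.0822 and 0.103), with that time fitted alone, with relative depth as a term, and without any 1 of 6 of the 8 samples (up to 0.0290 and 0.0421).

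**Figure D2:**
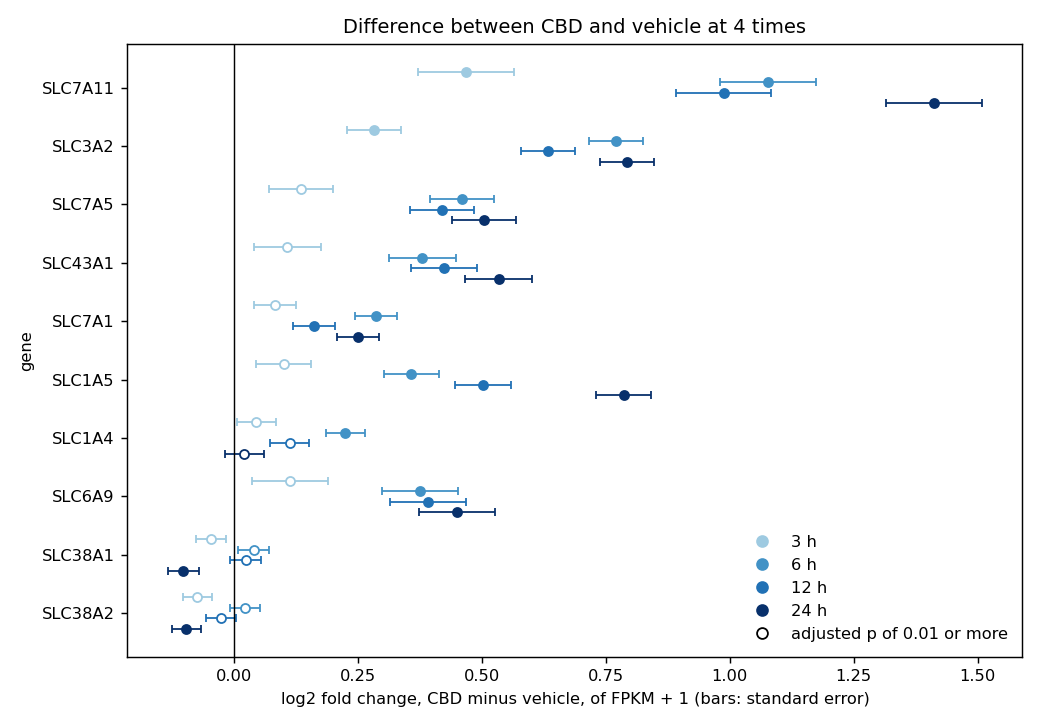
Log2 fold change of FPKM with 1 added, CBD minus vehicle (horizontal axis), for each carrier (vertical axis) at 3, 6, 12 and 24 h from light to dark blue, with standard errors as bars. Filled points have an adjusted p under 0.01. SLC7A11 reaches 1.41 at 24 h, SLC1A5 rises from 0.10 to 0.79 and SLC1A4 goes back to 0.021.

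Whether the effect of CBD itself differed between 3 h and 24 h was tested as an interaction. It was larger at 24 h for 5 of the 10 carriers, against 12.9% of all genes for which it was more positive at 24 h. In the lists of other carriers described below, it was more positive for 4 of 8 of the plasma membrane. It was also more positive for 2 of 8 lysosomal and 0 of 10 mitochondrial carriers, and less positive for 0, 0 and 2 in these 3 lists. Over all 12621 genes tested it was less positive for 1810. The differences of the effects on the log2 scale were 0.94 ± 0.14 (SE) for SLC7A11, 0.69 ± 0.079 for SLC1A5, 0.51 ± 0.077 for SLC3A2, 0.43 ± 0.095 for SLC43A1 and 0.37 ± 0.091 for SLC7A5, with adjusted p = 4.37e-06, 1.34e-07, 8.07e-06, 0.000809 and 0.00202. For SLC6A9 (0.34 ± 0.11, adjusted p = 0.0155) and SLC7A1 (0.17 ± 0.060, 0.0292) the test was not passed. Without CBD 3 h replicate 1, the highest of its group in 7 of the 10 carriers, both passed it (adjusted p = 0.000785 and 0.00345), and SLC6A9 also did without CBD 24 h replicate 4 (0.00332) and with 0.1 added in place of 1 (0.00842). SLC7A5 did not pass it with the 4 groups of the comparison fitted alone (adjusted p = 0.0140). An F-test for any change of the effect over the 4 times called the same number, 5 carriers, against 27.5% of all genes. That count was 8 without CBD 3 h replicate 1, and 3 without vehicle 3 h replicate 2 or 3 or CBD 3 h replicate 2, 3 or 4.

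Most carriers had lower levels in vehicle cells at 24 h than at 3 h, and not only those whose CBD effect grew. SLC1A4, SLC38A1 and SLC38A2 fell in vehicle, with changes of the CBD effect of -0.024, -0.055 and -0.023 (adjusted p = 0.770, 0.337 and 0.706 from limma). From 3 h to 24 h in vehicle, 8 carriers fell and 1 rose, against 31.1% and 26.6% of all genes. In the lists described below, 3 of 8 other plasma membrane, 6 of 8 lysosomal and 6 of 10 mitochondrial carriers fell, and 2, 1 and 2 rose. Among the 10, SLC3A2 fell most, by 0.62 on the log2 scale (SE 0.054, adjusted p = 1.82e-10), followed by SLC7A5, which fell by 0.47 (adjusted p = 4.79e-07). SLC43A1 alone rose, by 0.22 (adjusted p = 0.00597), a call lost under median-ratio scaling and quantile normalization (0.0133 and 0.0198) and without any 1 of 6 samples (up to 0.0192). The fall of SLC1A5 by 0.20 (adjusted p = 0.00327) was lost under quantile normalization (0.0560) and without any 1 of 4 samples (up to 0.0163). SLC7A11 differed by -0.27 (adjusted p = 0.0171), and was called lower with 0.1 added in place of 1 (-0.53, adjusted p = 0.000854), under quantile normalization (-0.78, 2.40e-06) and with the groups of the comparison fitted alone (0.000394). Set side by side, the mean at 24 h as a ratio to that at 3 h was 0.647 in vehicle and 0.929 with CBD for SLC3A2, and 0.721 and 0.933 for SLC7A5. For 3 carriers the level with CBD itself was higher at 24 h than at 3 h, with ratios of 1.99 for SLC7A11, 1.66 for SLC43A1 and 1.42 for SLC1A5, beside 0.663, 1.19 and 0.870 in vehicle.

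Ratios within a sample do not depend on how the samples were scaled and were compared for 4 pairs of related carriers at 4 times (16 exact two-sided permutation tests of 4 against 4 samples, smallest possible p = 0.0286, threshold 0.05 after Benjamini-Hochberg adjustment). The light chain SLC7A11 gained on its heavy chain SLC3A2 at every time. At 24 h the FPKM ratio was 0.0427 ± 0.0095 with CBD and 0.0143 ± 0.00063 with vehicle (SD, n = 4, exact permutation p = 0.0286, adjusted 0.0457), a log2 difference of 1.55. At 3, 6 and 12 h the log2 differences were 0.53, 1.09 and 1.20, each with the same p. The light chain SLC7A5 lost relative to SLC3A2. Its ratio at 24 h was 1.11 ± 0.036 with CBD and 1.36 ± 0.053 with vehicle (exact permutation p = 0.0286, adjusted 0.0457). At 6 and 12 h the log2 differences of this ratio were -0.31 and -0.22 with the same p, and at 3 h it was -0.15 (exact permutation p = 0.0571, adjusted 0.0762).

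The ratio of SLC1A4 to SLC1A5 moved from 0.267 ± 0.0055 with vehicle to 0.155 ± 0.0013 with CBD at 24 h (SD, n = 4, exact permutation p = 0.0286, adjusted 0.0457). The 4 CBD samples at 24 h lay between 0.154 and 0.157, although SLC1A5 itself varied between 50.3 and 60.8 FPKM among them. The log2 difference of the ratio was -0.054, -0.12, -0.39 and -0.78 at 3, 6, 12 and 24 h (exact permutation p = 0.229, 0.0571, 0.0286 and 0.0286). The ratio of SLC38A1 to SLC38A2 stayed between 0.980 and 1.11 in all samples. It was higher with CBD at 12 h by 0.050 (log2, exact permutation p = 0.0286, adjusted 0.0457), with differences of 0.028, 0.018 and -0.0053 at 3, 6 and 24 h (exact permutation p = 0.200, 0.143 and 0.686).

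**Figure D3:**
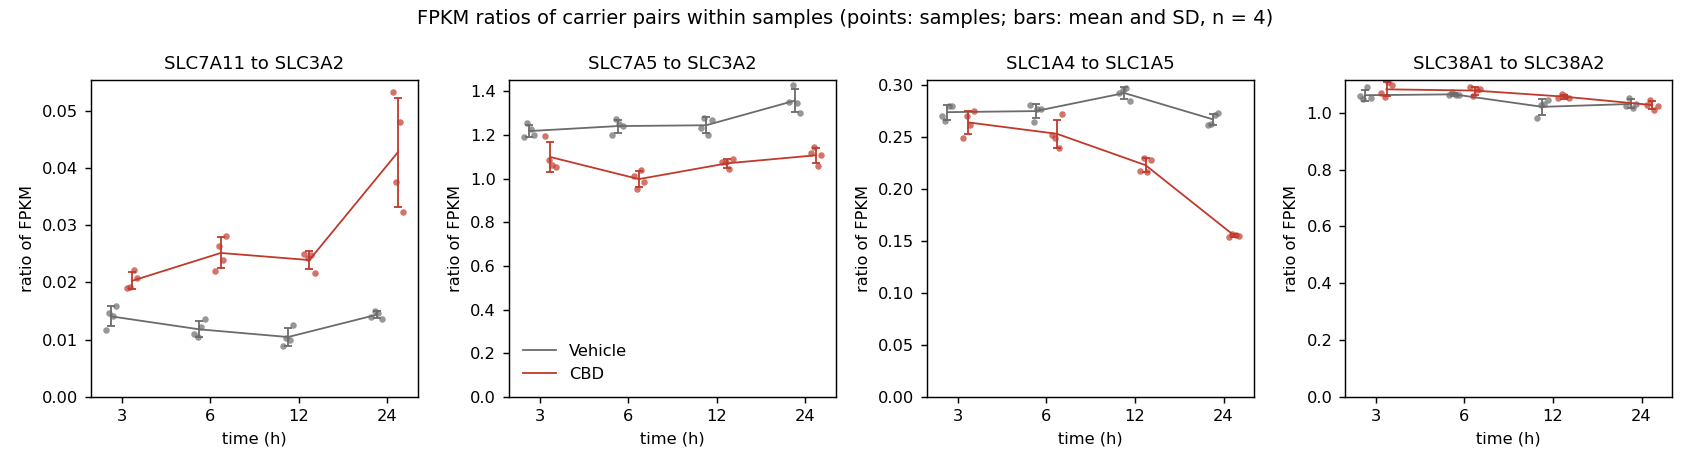
Ratio of FPKM of a pair of carriers within each sample (vertical axes, starting at 0) against time in h, with vehicle in grey and CBD in red. Points are samples, and lines and bars give the mean and SD of 4 samples. The ratio of SLC1A4 to SLC1A5 with CBD goes down to 0.155 at 24 h, and that of SLC7A11 to SLC3A2 goes up to 0.0427.

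FPKM are scaled by transcript length, so the levels of the carriers can be ordered within a group. In vehicle at 24 h the order of mean FPKM was SLC38A1, SLC38A2, SLC7A5, SLC3A2, SLC1A5, SLC7A1, SLC1A4, SLC43A1, SLC6A9 and SLC7A11, from 74.4 to 0.667 FPKM. The ranges of SLC38A1 and SLC38A2 overlapped there, and all other neighbours were apart. In vehicle at 3 and 6 h SLC7A5 also overlapped with its neighbours among SLC38A1 and SLC38A2. With CBD at 24 h the order was SLC7A5, SLC3A2, SLC38A1, SLC38A2, SLC1A5, SLC7A1, SLC43A1, SLC1A4, SLC7A11 and SLC6A9, from 90.2 to 2.34 FPKM. Neighbours whose ranges overlapped were SLC7A5 and SLC3A2, SLC38A1 and SLC38A2, SLC43A1 and SLC1A4, and SLC7A11 and SLC6A9. The time of the highest mean with CBD is given as a description, and times within CBD were not tested. The mean was highest at 6 h for SLC3A2, SLC7A5, SLC7A1, SLC1A4 and SLC6A9, at 24 h for SLC7A11, SLC1A5 and SLC43A1, and at 3 h for SLC38A1 and SLC38A2. Only for SLC3A2 and SLC1A5 was the range at that time apart from those at all other times.

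Other carriers of the plasma membrane were listed from general knowledge of the carrier families and counted beside them. The lists were drawn up with earlier results of these data known. Of 30 such genes in the table, 8 were tested, and at 24 h 4 were called higher and 2 lower (20.8% and 21.3% of all genes) with a median log2 difference of 0.028. At 3 h 0 of these 8 were called higher and 1 lower, against 1.18% and 1.28% of all genes. At 6 h 0 were called, against 4.07% of all genes higher and 6.13% lower. At 12 h 3 were higher and 2 lower, against 8.85% and 11.2%. SLC7A2 (CAT2), a cationic carrier like SLC7A1, had differences of -0.14, 0.11, 0.30 and 0.55 at 3, 6, 12 and 24 h. It was the gene called lower at 3 h (adjusted p = 0.00852 from limma) and was higher at 24 h (1.90e-13). Its level at 24 h was 23.2 ± 0.25 FPKM in CBD and 15.5 ± 0.45 in vehicle (SD, n = 4). SLC7A6 (y+LAT2), another light chain of SLC3A2, fell by 0.25 at 24 h (adjusted p = 7.71e-06), with 7.52 ± 0.20 FPKM in CBD and 9.12 ± 0.46 in vehicle, after differences of -0.11, -0.089 and -0.15 at the earlier times. SLC6A15, a sodium-coupled carrier of branched-chain amino acids in neurons, had differences of 0.0045, 0.055, 0.14 and 0.21 (adjusted p at 24 h = 6.74e-09).

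Carriers of lysosomes and mitochondria were counted in the same way. Of 8 lysosomal carriers tested, 0 were higher and 1 lower at 3 h, against 1.18% and 1.28% of all genes. At 6 and 12 h 0 were called, against 4.07% and 8.85% of all genes higher and 6.13% and 11.2% lower. At 24 h 2 were higher and 2 lower (20.8% and 21.3% of all genes), with SLC36A1 in this list and the one before. The 8 include SLC29A3, a carrier of nucleosides, which was called at no time. SLC7A14 had differences of -0.12, -0.033, 0.071 and 0.30 (adjusted p at 24 h = 8.24e-12), the peptide and histidine carrier SLC15A4 of -0.013, 0.13, 0.064 and 0.21 (4.61e-05), and SLC38A9, the lysosomal arginine sensor, of -0.12, 0.064, -0.045 and -0.20 (0.000890). Of 10 mitochondrial carriers, 0 were higher and 3 lower at 24 h (20.8% and 21.3% of all genes). SFXN2 had differences of -0.11, -0.12, -0.069 and -0.40 (adjusted p at 24 h = 1.71e-08), SFXN3 of -0.0049, -0.13, -0.31 and -0.36 (3.30e-08) and SLC25A29, a carrier of basic amino acids, of -0.0045, 0.0075, -0.13 and -0.14 (0.00831).

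**Figure D4:**
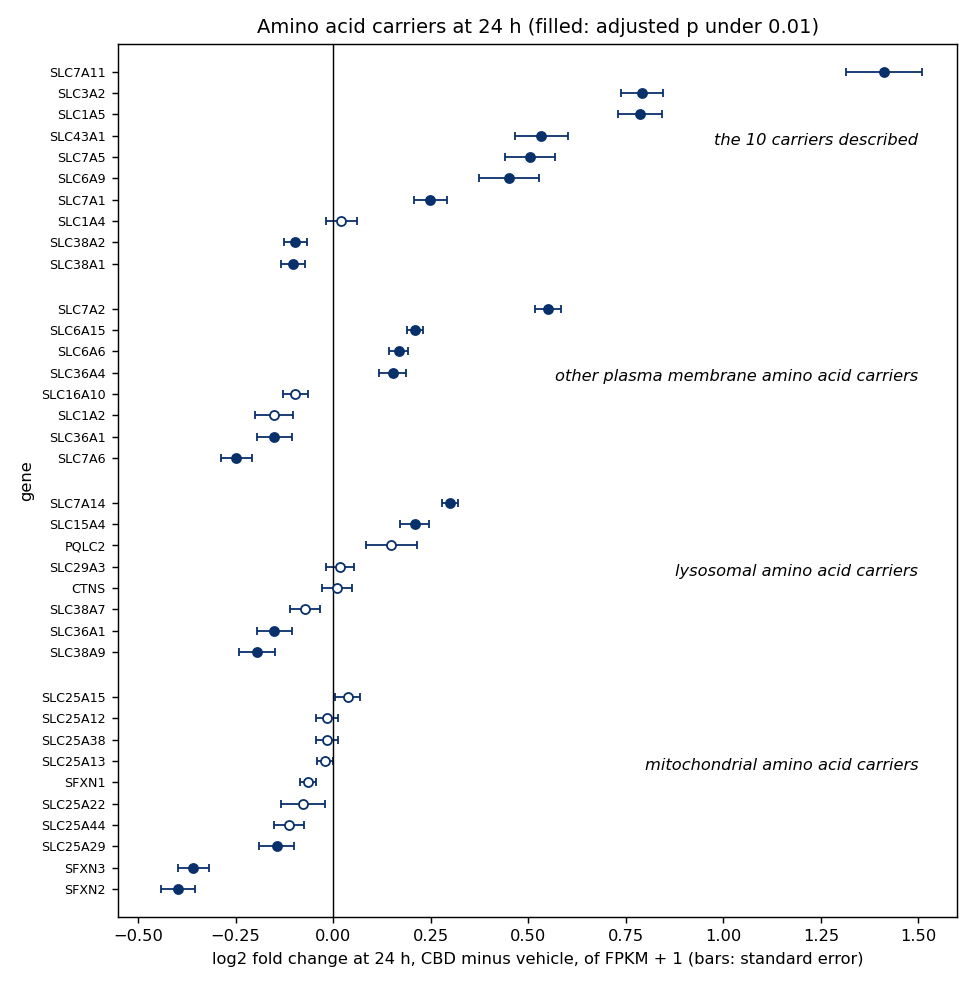
Log2 fold change at 24 h of FPKM with 1 added, CBD minus vehicle (horizontal axis), with standard errors as bars, for the 10 carriers and for the tested genes of 3 other lists of carriers (vertical axis). Filled points have an adjusted p under 0.01. Of the 10 carriers 7 are filled on the right of 0 and 2 on the left, beside 20.8% and 21.3% of all genes tested. In the other lists 4 of 8 plasma membrane, 2 of 8 lysosomal and 0 of 10 mitochondrial carriers are filled on the right. On the left 2, 2 and 3 are filled.

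Genes that control or use the same amino acids were also counted. Of 16 tested regulators of the carriers, 3, 5, 6 and 8 were higher and 0, 2, 1 and 2 lower at 3, 6, 12 and 24 h, beside 1.18%, 4.07%, 8.85% and 20.8% of all genes higher and 1.28%, 6.13%, 11.2% and 21.3% lower. DDIT3 (CHOP), a stress-induced transcription factor, had differences of 0.42, 0.44, 0.44 and 1.29, CEBPB, a partner of ATF4 on DNA, of 0.39, 0.60, 0.55 and 0.93, and TRIB3, an inhibitor of ATF4, of 0.054, 0.33, 0.47 and 0.90. At 24 h their adjusted p was 1.10e-10, 1.97e-11 and 2.82e-07. Chosen after their values were seen because background on both is given above, ATF4 had differences of 0.24, 0.38, 0.35 and 0.41 (adjusted p = 0.000182, 2.21e-08, 3.46e-08 and 7.10e-10) and NFE2L2 of -0.0044, -0.013, -0.012 and -0.035 (adjusted p = 0.970, 0.839, 0.846 and 0.413). These are RNA levels, and proteins were not analysed here.

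Of 10 tested genes of glutathione synthesis and cystine use, 3, 4, 6 and 7 were higher at 3, 6, 12 and 24 h, beside 1.18%, 4.07%, 8.85% and 20.8% of all genes, and 0 were lower. GCLM, a subunit of the enzyme that makes glutamylcysteine, had differences of 0.15, 0.52, 0.55 and 0.53 (adjusted p at 24 h = 6.78e-14), CTH, which makes cysteine, of 0.087, 0.29, 0.24 and 0.31 (1.90e-05), and CHAC1, which breaks down glutathione, of 1.08, 1.16, 0.94 and 0.78 (3.40e-07). Of 9 tested enzymes of glutamine and glutamate, 5 were higher and 0 lower at 24 h (20.8% and 21.3% of all genes), with ASNS, the asparagine synthetase, at 0.26, 0.45, 0.68 and 0.86 (adjusted p at 24 h = 2.26e-14), GOT1, a transaminase, at 0.082, 0.099, 0.11 and 0.40 (5.19e-10) and CAD, which starts pyrimidine synthesis from glutamine, at -0.033, 0.047, 0.14 and 0.22 (7.40e-06). Of 26 tested genes of amino acid sensing by the kinase complex mTORC1, 4 were higher and 9 lower at 24 h (20.8% and 21.3% of all genes), SLC38A9 of the lysosomal list among the latter, with SESN2, a leucine sensor, at 0.50, 0.62, 0.55 and 0.78 (adjusted p at 24 h = 5.88e-07). RRAGB, a GTPase of that pathway, had differences of 0.045, -0.048, -0.086 and -0.28 (adjusted p at 24 h = 1.12e-06), and FLCN, a regulator of these GTPases, of -0.0039, 0.11, 0.21 and 0.26 (4.02e-06).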

How the data were processed

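Poly(A) RNA of SK-N-BE(2) cells was sequenced as single reads of 50 bases over 7 lanes, in 32 samples grouped by the treatment and time in their labels. The authors deposited FPKM per gene and sample, made with Cufflinks after trimming with Trimmomatic 0.36 and alignment to hg19 with TopHat. FPKM hide the depth of a sample, so no interval for counting error could be given. Relative depth came from the lowest steps of 1414 low genes. The deposited Cuffdiff table holds log2 fold changes and q-values of the authors' own comparisons and was not used.

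The 12621 genes averaging 1 FPKM or more were analysed as log2(FPKM + 1), and 8 group means were fitted with limma 3.58.1 (trend) in R 4.3.3, with Benjamini-Hochberg adjustment within each comparison and a threshold of 0.01. Ratios of carriers were compared by exact permutation in scipy 1.17.1 under Python 3.11.15, adjusted over 16 tests. The limma fit was tested on simulated data in which each gene had the same spread in all groups. The members and gene lists were chosen with earlier results of these data known. All 10 members are named, together with the 3 called genes of each other list with the largest absolute difference at 24 h and, for members called at 3 or more times, the 3 genes of most similar pattern over the 8 group means. Gene positions are from GENCODE 44 on GRCh37, and promoter windows from RefSeq on GRCh38.p14. Labels give groups the same replicate numbers. Over all genes tested, same-numbered samples of both arms did not deviate together (correlations of -0.0757 to 0.0935 in 16 pairs), so no block was used. Alternatives were other added values, filters, scalings, thresholds and model terms, each time alone, and each sample left out.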

Additional observations from a re-analysis of the deposited data

Results flagged for a closer look

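SLC6A9 in CBD 3 h replicate 1 was at 3.07 FPKM, apart from the other 3 samples of its group by 0.857 of the range of the group. This gap was past the 95% limit for 4 samples, which chance passes in about 1 of 20 groups, and 80 groups (10 carriers in 8 groups) were looked at. Without that sample the effect of CBD on SLC6A9 changed between 3 h and 24 h (adjusted p = 0.000785 from limma), and with all samples the test was not passed (0.0155). With that sample kept, it was passed without CBD 24 h replicate 4 (0.00332) and with 0.1 added before the logarithm (0.00842).

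By limma's interaction test, the effect of CBD was more positive at 24 h than at 3 h for 5 of the 10 carriers and less positive for 0. Over the 12621 genes tested it was more positive for 1625 (12.9%) and less positive for 1810. SLC7A11 passed the filter only through its CBD samples, and SLC7A5 was not called with the groups of the comparison fitted alone (adjusted p = 0.0140). The effect at 24 h minus that at 3 h, on the log2 scale, was 0.94 for SLC7A11 (adjusted p = 4.37e-06), 0.69 for SLC1A5 (1.34e-07), 0.51 for SLC3A2 (8.07e-06), 0.43 for SLC43A1 (0.000809) and 0.37 for SLC7A5 (0.00202).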

How the results depend on the processing

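At 3 h the count of carriers called was 1 in place of 2 with 5 added before the logarithm, a mean of at least 5 FPKM (which leaves SLC7A11 and SLC6A9 untested), quantile normalization or that time fitted alone, and 1 to 2 with 1 sample left out. The count of all genes called at 3 h was 310 and became 29 with that time fitted alone, 189 with relative depth as a term, 917 at a threshold of 0.05 and 164 to 493 with 1 sample left out. At 6 h the count over all genes was 1288 and became 425 with that time fitted alone and 2434 at the threshold of 0.05. The F-test over time called 8 carriers and 5294 genes at the threshold of 0.05, and 3 to 8 carriers with 1 sample left out. SLC1A4 at 24 h turned to -0.0029 under median-ratio scaling and lay between -0.014 and 0.065 with 1 sample left out, and its change from 3 to 24 h then lay between -0.058 and 0.020. Under quantile normalization the change of SLC38A1 turned to 0.0099 and that of SLC38A2 to 0.040. The cause was not tested. The replicate block brought the change of SLC6A9 past the threshold (adjusted p = 0.00952 from limma) and changed no other call of a carrier. Over all genes tested, same-numbered samples of both arms had not deviated together. The other counts of genes and carriers stayed within 1.5 times their value. The 128 ratios with 1 sample left out moved by less than the spread between replicates, but 4 against 3 samples cannot give an exact p below 0.0571. Depth in reads is unknown, which limits most the low carriers SLC7A11 and SLC6A9.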

Other observations

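Samples of a group ranked alike across carriers. Of the 7 carriers called at 3 or more times, CBD 3 h replicate 1 was the highest of its group for 6, CBD 24 h replicate 1 for 6 and replicate 4 of CBD 24 h the lowest for 7. The relative depths of these 3 samples were 0.937, 1.02 and 0.936. In vehicle at 24 h, replicate 1 was the lowest for 6 of the 7 and replicate 2 the highest for 6. Replicate 4 was often the lowest in other groups too. At 3 h it was the lowest for 6 in vehicle and 5 with CBD, and at 6 h for 4 and 6. At 12 h it was the lowest for 5 in vehicle and 2 with CBD, and in vehicle at 24 h for 1. The reason for this was not tested.

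The genes whose 8 group means were most like those of a carrier are given as a description over 8 groups, in which the samples share libraries with the carrier. For SLC7A11 they were SQSTM1 (Pearson r = 0.983), POLD2 and HDHD2, and the most similar carrier was SLC1A5 (0.970). GCLM was the first for SLC7A5 (0.988), SLC3A2 (0.987) and SLC6A9 (0.996), and VGF was among the first 3 for each of these. The remaining genes were OSGIN2 for SLC7A5, GARS for SLC3A2 and NADK for SLC6A9. SLC7A5 and SLC3A2 were the most similar pair among the 7 (0.994). For SLC1A5 the genes were PDIA5 (0.993), CMTM7 and CUTA, for SLC7A1 UNKL (0.988), TTC39C and SLMO2, and for SLC43A1 HTATSF1P2 (0.994), PCK2 and NPDC1.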
